A study of Mus musculus with 9 samples.

Results

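RNA-Seq of murine Tc17 cells was examined for 9 genes that encode integrin subunits. They are the α subunit genes Itgam, Itgae, Itga4, Itgal and Itgav and the β subunit genes Itgb1, Itgb2, Itgb3 and Itgb7. They make up 9 of the 41388 genes of the table and 9 of its 26 integrin subunit genes. All 9 were tested, since their normalized counts averaged at least 10 over the libraries, as did those of 11599 genes in all. Itgam reached that mean through its Ctrl and DMF + GSH libraries. The genes were chosen by earlier results of the comparison of DMF with Ctrl in these same libraries, where Itgam was among the largest differences. Their values in that comparison are therefore a description and carry no test.

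Tc17 cells are CD8+ T cells that make IL-17. Here they came from naive CD8+ T cells sorted from lymph node and spleen of C57BL/6 mice, 8 to 12 weeks old according to the methods. The cells were primed with antibodies to CD3 and CD28 in the presence of IL-2, TGF-β, IL-6 and an antibody to IFN-γ. During the 2 days of culture the cells of every group received 0.2% DMSO. It was given alone (Ctrl), with 20 µM dimethyl fumarate (DMF), or with 20 µM DMF and 50 µM glutathione (DMF + GSH). Each group had 3 libraries, and the labels place replicate 1 of each group in batch 1 and replicates 2 and 3 in batch 2 of the preparation. DMF is an electrophilic ester that reacts with thiols and lowers cellular glutathione, and it is used as a drug in multiple sclerosis and psoriasis. The comparison of DMF + GSH with the other groups asks what glutathione added to the medium changes.

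The libraries held 7671772 to 11589246 reads in the Ctrl group, 10382638 to 12669991 in the DMF group and 9753478 to 14511926 in the DMF + GSH group. Normalized counts are read counts divided by a size factor per library, and 1 read was worth 0.742 to 1.42 of them. Each of the 8 CD8+ T cell markers was detected in every library, with summed normalized counts of 35856 to 45805. With DMF, 4 of these 8 fell and 1 rose at p adj under 0.1 in limma, with a median log2FC of −0.24. Of all genes tested, 18.3% fell and 19.9% rose. Cd4 reached at most 4.40, while the sum of 4 markers of CD4+ T cells was 638 to 964 in Ctrl and 1125 to 2529 with DMF. Most of that sum was Foxp3, which rose with DMF at p adj under 0.1 (log2FC 1.29, p adj = 0.0221 in limma, and 1.06e-07 with the replicate number as a block). Ctrl replicate 3 was the shallowest library and stood apart by its macrophage transcripts, whose values are given beside Itgam.

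Integrins are adhesion receptors made of an α and a β chain, and each chain reaches the cell surface only with a partner. On T cells they are held inactive until signals from the antigen or chemokine receptors, passed on through the small GTPase Rap1 and talin, switch them to a shape that binds ligand. αLβ2 (LFA-1) holds T cells to ICAM-1 on other cells, and αMβ2 (CD11b/CD18, Mac-1) binds complement fragments, fibrinogen and ICAM-1. α4β1 and α4β7 bind VCAM-1 and MAdCAM-1 on vessel walls and guide T cells into inflamed tissue and gut. αEβ7 (CD103) binds E-cadherin on epithelium, and the αv integrins bind matrix proteins such as vitronectin and osteopontin and can activate latent TGF-β.

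The 250 bases before the gene start are shown for 3 genes that differed in direction, Itgam and Itga4 (lower with DMF) and Itgav (higher). They are taken from RefSeq for GRCm38.p6, in which 5 of the 9 genes matched, and all 3 lie on the plus strand with no annotated exon in the window. Capitals mark matches, on either strand, to 9 motifs searched: RUNX TGTGGT, ETS AGGAAG, FOXO GTAAACA, T-box GGTGTGA, ROR AGGTCA, STAT TTCNNNGAA, NRF2 TGACNNNGC, AP-1 TGANTCA and GC box GGGCGG.
Itgam chr7:128062390-128062639: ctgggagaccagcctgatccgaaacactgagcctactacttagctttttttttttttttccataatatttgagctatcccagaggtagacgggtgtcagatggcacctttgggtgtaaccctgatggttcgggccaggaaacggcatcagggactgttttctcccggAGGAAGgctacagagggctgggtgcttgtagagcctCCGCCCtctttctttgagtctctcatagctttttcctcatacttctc
Itga4 chr2:79255176-79255425: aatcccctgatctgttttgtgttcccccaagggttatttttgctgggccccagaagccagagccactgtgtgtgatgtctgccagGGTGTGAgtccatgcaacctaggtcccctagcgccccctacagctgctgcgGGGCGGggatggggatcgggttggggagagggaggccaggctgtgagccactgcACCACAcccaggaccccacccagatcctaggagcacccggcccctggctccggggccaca
Itgav chr2:83724147-83724396: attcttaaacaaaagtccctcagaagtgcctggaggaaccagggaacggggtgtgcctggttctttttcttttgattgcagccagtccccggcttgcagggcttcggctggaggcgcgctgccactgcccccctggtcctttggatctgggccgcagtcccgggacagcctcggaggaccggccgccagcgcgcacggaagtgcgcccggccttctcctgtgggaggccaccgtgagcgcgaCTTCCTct
The Itgam window held an ETS match at position −83 from the gene start and a GC box at −47. The Itga4 window held T-box letters at −165, a GC box at −114 and RUNX letters at −60. The Itgav window held an ETS match at −8. Among 27025 promoter windows of this length, the ETS letters occurred in 29.2%, the GC box in 32.9%, the RUNX letters in 14.2% and the T-box letters in 3.31%. None of the 3 windows held the letters searched for FOXO (3.09% of all windows), ROR (13.8%), STAT (7.18%), NRF2 (10.1%) or AP-1 (6.87%), which describes these windows only. Of the other 2 windows matched, that of Itgb1 held NRF2 letters at −21, ETS letters at −63 and −56 and a GC box at −151, and that of Itgb7 ETS letters at −141.

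Itgam encodes the α chain of αMβ2, best known from macrophages and neutrophils and also found on activated CD8+ T cells. The gene (ENSMUSG00000030786) lies at chr7:128062640-128118491 on the plus strand of GRCm38, on which all positions are given. Its normalized counts were 48.8, 44.6 and 39.8 in the Ctrl libraries, 8.46, 5.99 and 1.94 with DMF, and 42.9, 30.4 and 11.7 with GSH added to DMF. Every DMF library lay below every other library, and the DMF + GSH libraries spanned most of the range between the other groups. The group means were 44.4 ± 4.52 in Ctrl, 5.46 ± 3.30 with DMF and 28.3 ± 15.7 with DMF + GSH (SD, n = 3). The DMF values rest on 8, 7 and 2 reads against 47, 48 and 28 in Ctrl. The fitted log2FC of DMF against Ctrl, on log2(normalized count + 1), was −2.97 (SE 0.435), with differences of −2.40, −2.70 and −3.80 in replicates 1, 2 and 3. A lower value can come from fewer cells that express the gene or from less RNA per cell, and these cannot be told apart in bulk libraries.

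**Figure D1:**
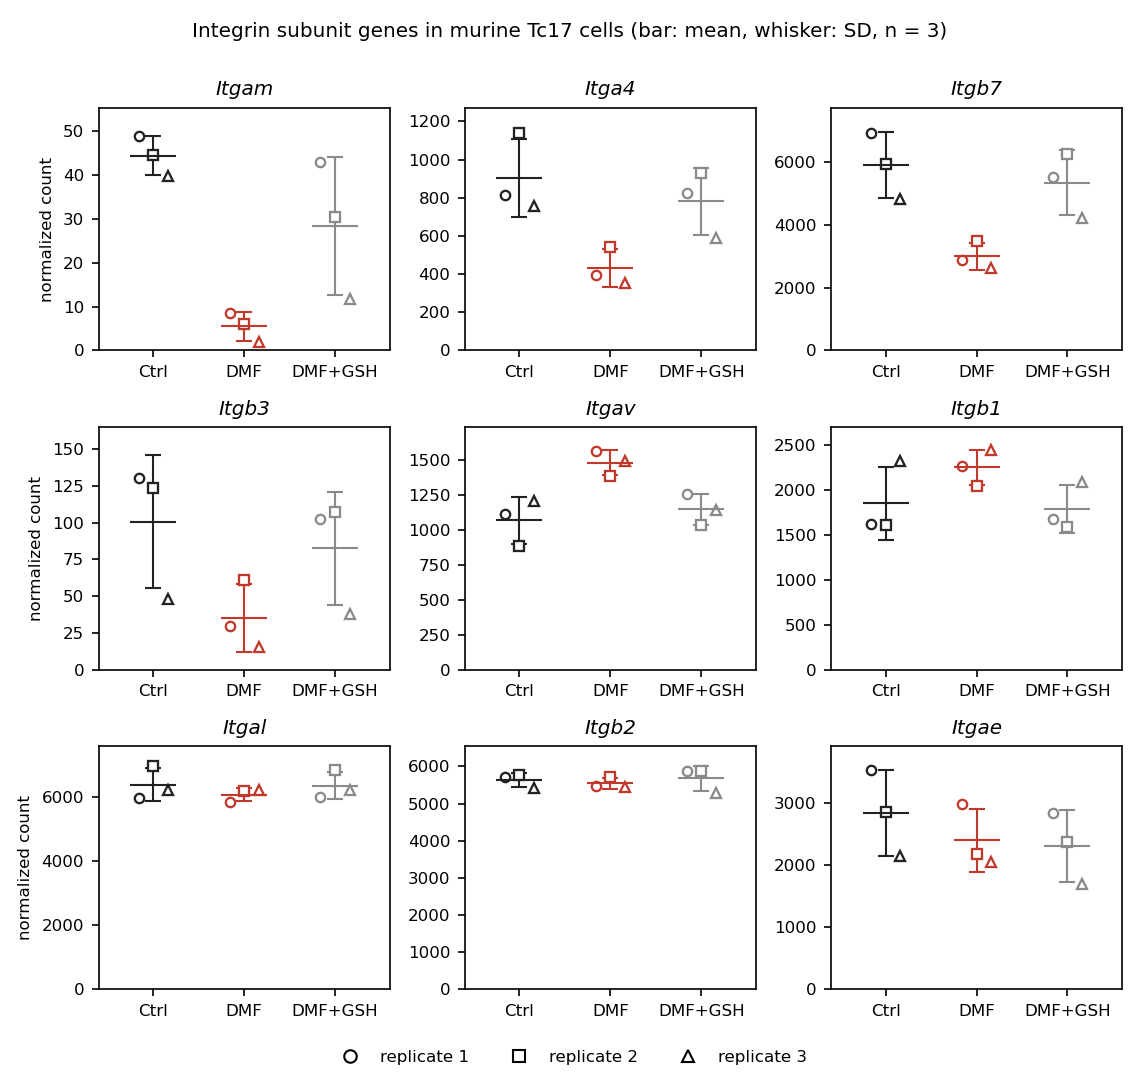
Normalized counts (vertical axes, each from 0) of the 9 integrin subunit genes in Ctrl, DMF and DMF + GSH libraries, where symbols are the 3 replicates, horizontal bars the group means and whiskers the SD. In Itgam, Itga4 and Itgb7 every DMF library sits below every Ctrl and DMF + GSH library, whereas the libraries of the 3 groups overlap in Itgal and Itgb2.

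Of the 9 genes, 3 (Itgam, Itga4 and Itgb7) were past the threshold of the study (p adj under 0.01 and an absolute log2FC of at least 0.75) in the lower direction and 0 in the higher direction with DMF. Over all genes tested, limma called 1.67% lower and 1.22% higher. At p adj under 0.1, 4 of the 9 were lower (Itgb3 in addition) and 1, Itgav, was higher, against 18.3% and 19.9% of all genes. The groups did not overlap in 3 of the 9 in the lower direction (19.8% of all genes) and in 1 in the higher direction (21.6%). With the replicate number as a block, 4 of the 9 (Itgb3 in addition) were past the threshold, against 4.28% of all genes in the lower direction, and at p adj under 0.1 the 9 counted 5 lower (Itgae in addition, 24.8% of all genes) and 2 higher (Itgb1 in addition, 27.2%). Since this comparison chose the genes, nothing is read from these counts. The count was 0 when only the 6 Ctrl and DMF libraries were fitted, and also without Ctrl replicate 1, Ctrl replicate 2, DMF replicate 1, DMF replicate 3 or DMF + GSH replicate 1. With the replicate block it was 4 without any 1 of the 9 libraries.

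Itga4 (chr2:79255426-79333123, plus strand) encodes the α chain shared by α4β1 and α4β7. Its normalized counts were 816, 1138 and 756 in Ctrl, 397, 544 and 355 with DMF, and 827, 927 and 588 with GSH added to DMF. The DMF libraries were the 3 lowest of the 9, and the Ctrl and DMF + GSH libraries overlapped. The log2FC of DMF against Ctrl was −1.06 (SE 0.215), and the differences within replicate numbers lay between −1.04 and −1.09. The gene shares 1124 exon bases with Cerkl on the opposite strand, whose mean normalized count was 19.0.

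Itgb7 (chr15:102215995-102231944, minus strand) encodes the β chain that pairs with the products of Itga4 and Itgae. Its normalized counts were 6931, 5944 and 4829 in Ctrl, 2900, 3476 and 2644 with DMF, and 5547, 6278 and 4234 with GSH added to DMF. Again the DMF libraries were the 3 lowest, and the lowest library of the other groups was above the highest DMF library. The log2FC of DMF against Ctrl was −0.97 (SE 0.163), with −1.26, −0.77 and −0.87 in replicates 1 to 3. Transcripts of both chains of α4β7 were thus lower with DMF in all 3 replicate numbers, and protein was not measured here.

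Itgae (chr11:73090583-73147446, plus strand), the other α partner of Itgb7, encodes CD103, which TGF-β is known to induce. Its normalized counts were 3525, 2852 and 2149 in Ctrl, 2978, 2170 and 2043 with DMF, and 2843, 2374 and 1703 with GSH added to DMF. The 3 groups overlapped, and in each of them replicate 1 was highest and replicate 3 lowest. The log2FC of DMF against Ctrl was −0.24 (SE 0.129), with a 95% interval of −0.52 to 0.05. The DMF library was lower in 3 of 3 replicate numbers, and with the replicate number as a block the interval was −0.37 to −0.10.

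Itgb3 (chr11:104608000-104670476, plus strand), the β chain of the vitronectin receptor αvβ3, was the least abundant of the 4 β subunits described. Its normalized counts were 130, 124 and 48.3 in Ctrl, 29.6, 60.8 and 15.5 with DMF, and 102, 107 and 37.9 with GSH added to DMF. The groups overlapped, since replicate 3 was low in each of them. Within replicate numbers the DMF library was lower each time, with differences of −2.10, −1.01 and −1.58 on the log2 scale. The log2FC of DMF against Ctrl was −1.56 with an SE of 0.542, and the SE was 0.202 with the replicate number as a block. Leaving out 1 library moved the log2FC of Itgb3 to between −2.18 (without DMF replicate 2) and −1.14 (without DMF replicate 3).

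Transcripts of the αv chain, the partner of the Itgb3 product in αvβ3, differed in the other direction. Itgav (chr2:83724397-83806916, plus strand) had 1114, 882 and 1204 normalized counts in Ctrl, 1566, 1384 and 1489 with DMF, and 1258, 1036 and 1144 with GSH added to DMF. All 3 DMF libraries were above the other 6, with a log2FC against Ctrl of 0.48 (SE 0.107). The gene shares 634 exon bases with Gm13684 on the opposite strand, whose mean normalized count was 7.26. Itgb1 (chr8:128685654-128733200, plus strand) encodes the β chain with the most α partners, among them α4 and αv. It had 1623, 1608 and 2318 normalized counts in Ctrl, 2263, 2046 and 2444 with DMF, and 1675, 1591 and 2090 with GSH added to DMF. Ctrl replicate 3 lay within the range of the DMF libraries, so that the groups overlapped, and the DMF library was higher in each replicate number. The log2FC of DMF against Ctrl was 0.30 (SE 0.146), and the SE was 0.0649 with the block. Leaving out 1 library moved the log2FC of Itgb1 to between 0.18 and 0.47.

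Itgal (chr7:127296260-127335138, plus strand) and Itgb2 (chr10:77530252-77565708, plus strand) encode the 2 chains of LFA-1, and Itgb2 also pairs with the Itgam product. Itgal had means of 6382 ± 514 in Ctrl, 6070 ± 207 with DMF and 6351 ± 424 with DMF + GSH (SD, n = 3). Itgb2 had means of 5634 ± 192, 5553 ± 147 and 5677 ± 342. The log2FC of DMF against Ctrl was −0.07 (95% interval −0.22 to 0.08) for Itgal and −0.02 (−0.17 to 0.13) for Itgb2. For Itgb2, the β partner of the Itgam chain, the interval thus ended at −0.17, against a log2FC of −2.97 for Itgam itself.

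**Figure D2:**
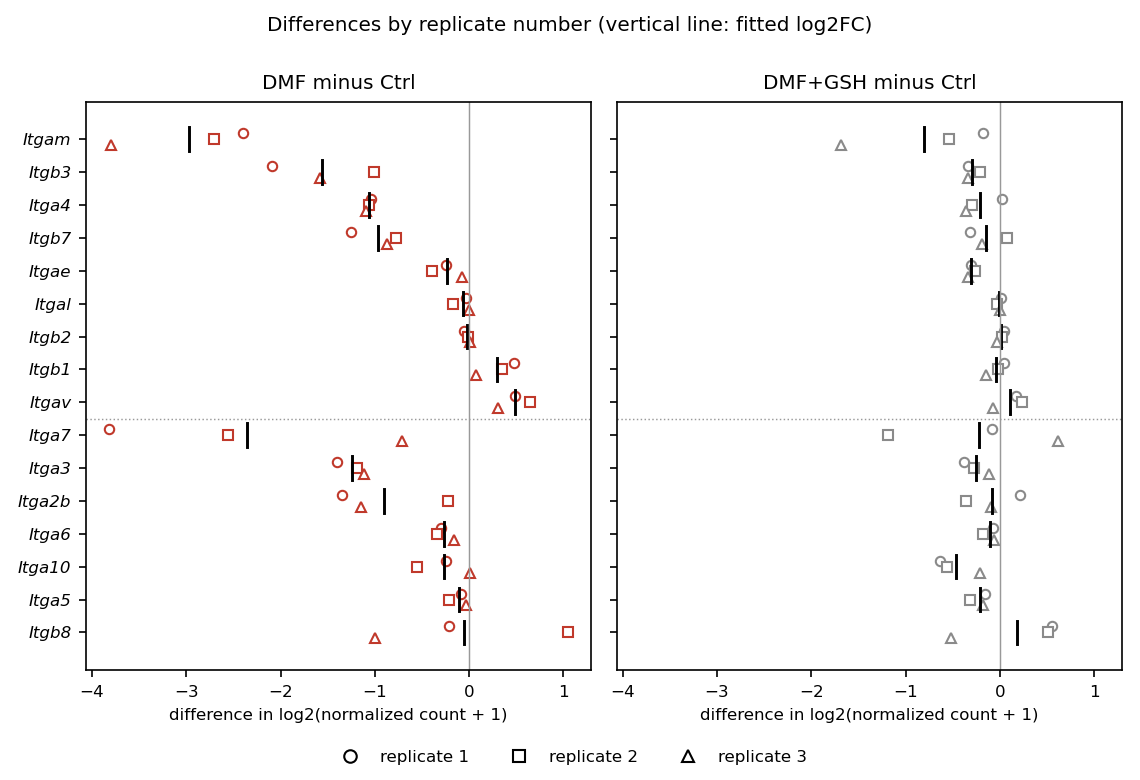
Differences in log2(normalized count + 1) between libraries of the same replicate number, DMF minus Ctrl on the left and DMF + GSH minus Ctrl on the right, where symbols are replicates and vertical lines the fitted log2FC. The 9 genes described are above the dotted line and the 7 other subunits tested below it. On the left Itgam lies between −2.40 and −3.80 and Itgav between 0.31 and 0.65, and on the right 8 of the 9 fitted values run from −0.30 to 0.11, with Itgam at −0.80.

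Levels were compared between genes as RPKM, reads per kb of exon scaled to the size of the library. Among the 18 α subunit genes, Itgal made up 46.7 ± 4.43% of the summed length-corrected level in Ctrl and Itgae 29.5 ± 5.33% (SD, n = 3). Itgav followed with 4.81 ± 1.12%, Itga4 with 3.08 ± 0.53% and Itgam with 0.42 ± 0.02%. Among these 5 genes each neighbour in the order differed from the next beyond their SD. Of the other α subunits, Itga3 (6.64 ± 0.86%) and Itga6 (6.32 ± 0.57%) ranked between Itgae and Itgav. Itga6 overlapped both Itga3 and Itgav within their SD. Itga5 (1.56 ± 0.26%) ranked between Itga4 and Itgam. With DMF the share of Itga4 was 1.70 ± 0.41% and that of Itgav 7.54 ± 0.36%. Among the 8 β subunit genes in Ctrl, Itgb7 (47.6 ± 4.84%) and Itgb2 (41.6 ± 2.28%) overlapped within their SD, ahead of Itgb1 (10.3 ± 3.07%) and Itgb3 (0.38 ± 0.15%). With DMF, Itgb2 held 52.5 ± 0.99%, Itgb7 31.2 ± 2.99% and Itgb1 15.97 ± 2.08% of the β total, which put Itgb2 first. With DMF + GSH the shares were 43.9 ± 2.00%, 45.2 ± 4.47% and 10.5 ± 2.70%. The summed β level was 411 ± 34.1 in Ctrl, 315 ± 19.1 with DMF and 394 ± 40.5 with DMF + GSH, in RPKM.

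**Figure D3:**
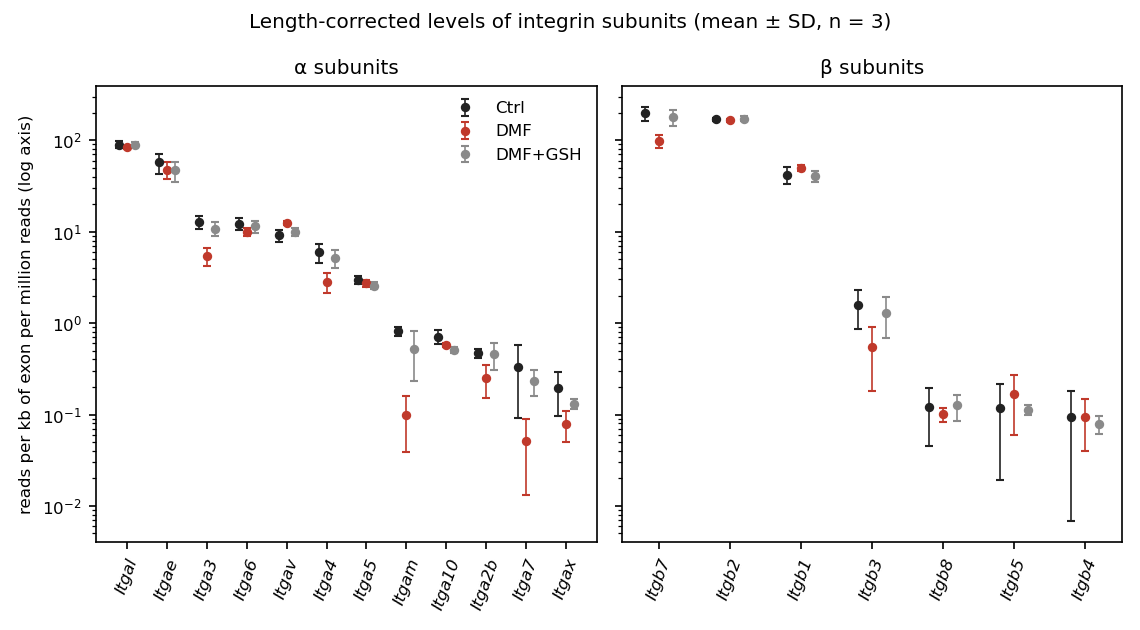
Length-corrected levels (RPKM) on a log axis for α subunits (left) and β subunits (right), as mean and SD of 3 libraries in Ctrl, DMF and DMF + GSH, ordered by the Ctrl mean and shown where every group mean is at least 0.05. Itgb7 and Itgb2 overlap within their SD in Ctrl, and Itgb7 is below Itgb2 with DMF, and Itgam is 0.817 in Ctrl and 0.0992 with DMF.

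In the comparison of DMF + GSH with DMF, limma called 0.267% of all genes higher (3.28% with the replicate block) and 0.276% lower past the threshold, and 15.7% higher and 17.6% lower at p adj under 0.1. This comparison shares the DMF libraries with the one that chose the genes. Genes chosen for low or high DMF values are thereby favoured to differ from DMF here as well, and Itgam passed the minimum through the other groups. The values of the 9 genes are therefore given as a description, with no test. Itgam was higher with GSH added by a log2FC of 2.16 (SE 0.435), and higher in 3 of 3 replicate numbers, by 2.11 to 2.21. Itgb7 was higher by 0.82 (SE 0.163) and Itga4 by 0.85 (SE 0.215), both in 3 of 3 replicate numbers. Itgav was lower, with a log2FC of −0.37 (SE 0.107) and 3 of 3 lower.

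Itgb3 had a log2FC of 1.27 (SE 0.542) and Itgb1 of −0.34 (SE 0.146). With the replicate number as a block, the estimates were the same and the SE was 0.328 for Itgam, 0.0779 for Itga4, 0.0729 for Itgb7 and 0.202 for Itgb3. With 1 library left out and no block, the log2FC of Itgb3 lay between 0.84 and 1.88. Itgal, Itgb2 and Itgae had log2FC values of 0.06, 0.03 and −0.07, with 95% intervals of −0.09 to 0.22, −0.12 to 0.18 and −0.35 to 0.22.

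In the comparison of DMF + GSH with Ctrl, which shares the Ctrl libraries, limma called 0 of 11599 genes (0%) at either threshold. Its unadjusted p was under 0.05 for 222 genes, which is less than a share of 0.05 of the genes tested. The count of 0 does not show that the groups are alike. edgeR and DESeq2 on the recovered reads also called 0 genes, with 213 and 100 at an unadjusted p under 0.05. The Ctrl libraries also entered the choice of the genes, so the values of the 9 are again a description with no test. The log2FC of Itgam was −0.80 with a 95% interval of −1.77 to 0.17 (−1.49 to −0.12 with the replicate block), and its differences were −0.18, −0.54 and −1.69 in replicates 1 to 3. Replicate 3, with 12 Itgam reads under DMF + GSH, was thus the farthest from its Ctrl library. With 1 library left out, the log2FC of Itgam lay between −1.10 and −0.38. Itgae had a log2FC of −0.30 and was lower in 3 of 3 replicate numbers. The intervals of Itgal and Itgb2 lay between −0.16 and 0.16, and that of Itgb3, from −1.51 to 0.91, was the widest.

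Markers of other cells were read beside Itgam because macrophages, neutrophils and NK cells also carry CD11b. Of 20 myeloid markers, S100a8 and S100a9 of neutrophils were at 0 in all 9 libraries. Ly6g, also of neutrophils, had 8.31, 10.2 and 7.11 normalized counts in Ctrl, 1.06, 1.71 and 0 with DMF, and 3.30, 2.97 and 4.86 with GSH added to DMF. As for Itgam, its DMF libraries were the 3 lowest, and it was under the minimum and not tested. Of the 4 myeloid markers tested, Cd68 (log2FC −0.47, p adj = 0.0703 in limma) and the chemokine receptor Ccr2 (log2FC −1.37, p adj = 0.0165, and 0.00200 with the replicate block) fell with DMF at p adj under 0.1. The summed normalized count of the 20 was 166 to 451 in Ctrl, 107 to 130 with DMF and 149 to 158 with DMF + GSH. Ctrl replicate 3 held 119 normalized counts of Lyz2, 58.3 of Csf1r, 45.5 of Adgre1 and 21.3 of Cybb, against at most 10.6, 5.83, 4.84 and 1.94 in the other 8 libraries. Its Itgam count was the lowest of the 3 Ctrl libraries. Without that library the Itgam log2FC of DMF against Ctrl was −2.90, and −2.54 with the replicate block. In Ctrl replicate 1, where Itgam was at its highest, Lyz2, Csf1r and Cybb were at 0, Cd68 was at 69.6, Ly6g at 8.31 and Adgre1 and Cd14 at 2.08 each. Of the 8 NK cell markers, Ncr1 was at most 2.08 and Klra8 at 0 in all libraries, and the sum (201 to 244 in Ctrl, 410 to 431 with DMF, 208 to 337 with DMF + GSH) came mostly from Klrk1, which rose with DMF (log2FC 0.94, p adj = 0.00737), as did Klre1 at p adj under 0.1 (log2FC 1.57, p adj = 0.0136, and 9.22e-04 with the replicate block). Of the 10 dendritic cell markers, Clec9a and Siglech were at most 1.1 and 0.93, and 4 were tested. Batf3 rose from 11.8 ± 4.81 to 129 ± 30.8 with DMF (SD, n = 3; log2FC 3.40, p adj = 0.00278 in limma), Xcr1 fell from 64.9 ± 8.19 to 14.9 ± 1.39 (log2FC −2.05, p adj = 0.00297, limma), and H2-Ab1 fell at p adj under 0.1 (log2FC −1.41, p adj = 0.0228, and 0.00132 with the block). With GSH added, the log2FC against DMF was −2.86 for Batf3 and 1.65 for Xcr1. The sum of the 10 was 256 to 324 in Ctrl, 324 to 380 with DMF and 215 to 333 with DMF + GSH. Of 7 B cell markers, 2 were tested, and neither reached p adj under 0.1 in limma for DMF against Ctrl. The 7 summed to 3853 to 4533 in Ctrl, 4211 to 4857 with DMF and 3797 to 4372 with DMF + GSH. The part of these markers in the Itgam values was not tested.

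**Figure D4:**
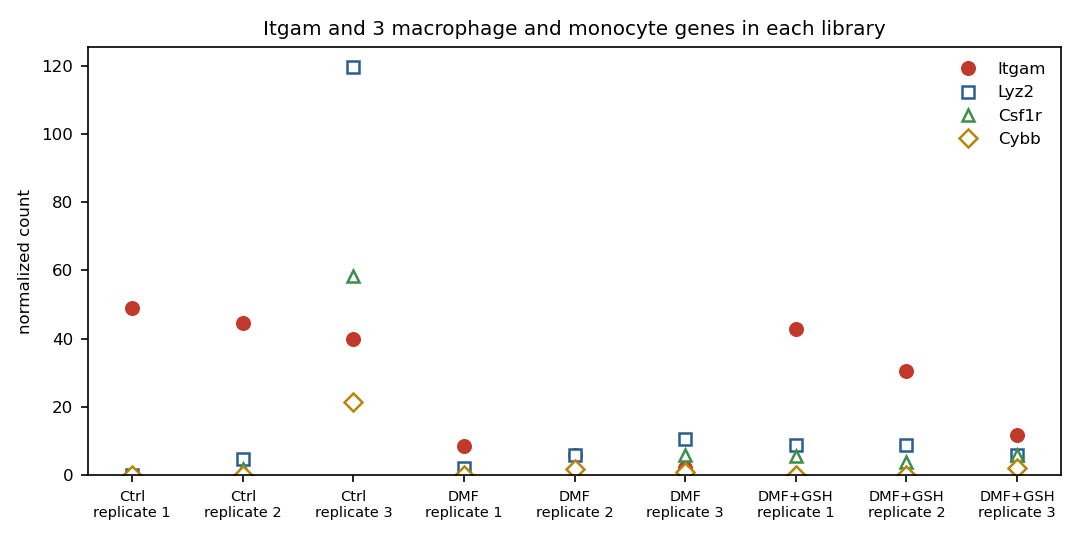
Normalized counts (vertical axis) of Itgam and of the macrophage and monocyte genes Lyz2, Csf1r and Cybb in each of the 9 libraries. The macrophage genes stand out in Ctrl replicate 3, with 119 for Lyz2. Itgam is 39.8 to 48.8 in all 3 Ctrl libraries and 1.94 to 8.46 with DMF. The other markers of the 20 myeloid genes are not shown, among them Ly6g, Ccr2 and Cd68, which were lower with DMF.

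Itgam lies in a cluster of leukocyte integrin genes on chromosome 7, followed by Itgax (CD11c) and Itgad. Itgax had 10.1 ± 4.97 normalized counts in Ctrl, 4.2 ± 1.62 with DMF and 6.82 ± 0.88 with DMF + GSH (SD, n = 3), and Itgad had 2.28 ± 2.00, 1.25 ± 0.41 and 1.39 ± 1.21. Both were under the minimum and were not tested. On the other side, Trim72 had a mean of 0.94 and was not tested, whereas Pycard, an inflammasome adaptor, fell with DMF at the second threshold (log2FC −0.46, SE 0.153, p adj = 0.0482 in limma). Itgam itself shares 3450 exon bases with the annotated gene Gm49368 on the same strand, which has no entry among the 41388 genes of the data.

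Of the 17 other integrin subunit genes, 7 had a mean of at least 10. Itga3, the α chain of the laminin receptor α3β1, had 714, 942 and 720 normalized counts in Ctrl, 269, 412 and 332 with DMF, and 547, 777 and 665 with GSH added to DMF. The DMF libraries were the 3 lowest. Itga3 fell past the threshold with DMF (log2FC −1.24, SE 0.126, p adj = 0.00173 in limma). Its log2FC of DMF + GSH against DMF was 0.98. That comparison shares the DMF libraries in which Itga3 was low, so the value is a description with no test. Without Ctrl replicate 1, DMF replicate 1 or DMF replicate 3, the p adj of the fall was 0.0272, 0.0180 and 0.0124. The second difference lost the call without Ctrl replicate 1, DMF replicate 1, DMF replicate 3, DMF + GSH replicate 1 or DMF + GSH replicate 2, with p adj up to 0.0688, with no batch term (0.0128) or with only the 6 libraries compared (0.0174). With the replicate block it kept the call in the full data and in every fit with 1 library left out.

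Of the other 6, Itga7, another laminin receptor chain, fell with DMF at the second threshold (log2FC −2.36, SE 0.672, p adj = 0.0282), on 1, 9 and 5 reads in the DMF libraries, and passed the stricter one with the replicate block (p adj = 5.74e-04). Itga6 (−0.26, p adj = 0.0212) and the platelet chain Itga2b (−0.91, p adj = 0.0585) also fell at that threshold. Itga10 (−0.26, p adj = 0.366), Itga5 of the fibronectin receptor (−0.11, p adj = 0.503) and Itgb8 (−0.05, p adj = 0.939) did not reach it. Of 10 platelet and red cell markers, 5 were at 0 in all libraries, and Itga2b alone was tested. The sum of the 10 was 29.7 to 34.3 in Ctrl, 14.5 to 24.8 with DMF and 19.3 to 38.5 with DMF + GSH. Without DMF replicate 1 the p adj was 0.158 for Itga7, 0.119 for Itga6 and 0.274 for Itga2b, and Itga7 and Itga2b were also above 0.1 without Ctrl replicate 1 or 2, as was Itga2b without DMF replicate 3. Over all alternatives the p adj of Itga6 reached 0.158. With 1 library left out, the log2FC of Itga7 lay between −3.14 and −1.60. The remaining 10 had means of 0.482 to 7.03 and were not tested.

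Genes around the integrins were read from 5 lists, and the log2FC of all genes tested had a median of 0.01 for DMF against Ctrl. Of 20 genes of integrin activation, all tested, 10 fell and 2 rose at p adj under 0.1, with a median log2FC of −0.20, where 18.3% of all genes fell and 19.9% rose. Rasgrp2, the exchange factor that loads Rap1, had 671, 460 and 310 normalized counts in Ctrl and 288, 229 and 145 with DMF. It fell past the threshold (log2FC −1.10, SE 0.214, p adj = 0.00820). Dock2, a Rac activator needed for T cell migration, fell from 5996 ± 842 to 4178 ± 219 (SD, n = 3; log2FC −0.51, p adj = 0.00958 in limma). Tln1, which encodes talin, fell by 0.32 on the log2 scale (p adj = 0.0117), and Apbb1ip, which encodes the Rap1 effector RIAM, rose by 0.22 (p adj = 0.0601).

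Of 12 genes that restrain integrins, 11 were tested, of which 6 fell and 1 rose at p adj under 0.1, with a median of −0.22. Over all genes tested, 18.3% fell and 19.9% rose. Rap1gap2, which switches Rap1 off, fell past the threshold from 93.5, 76.2 and 41.2 normalized counts in Ctrl to 26.4, 24.0 and 17.4 with DMF (log2FC −1.54, SE 0.275, p adj = 0.00702 in limma). Flna, the actin crosslinker that competes with talin for β tails, fell from 17428 ± 791 to 11594 ± 262 (log2FC −0.59, p adj = 0.00297, limma, n = 3). Members of the activating and of the restraining list thus fell side by side.

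**Figure D5:**
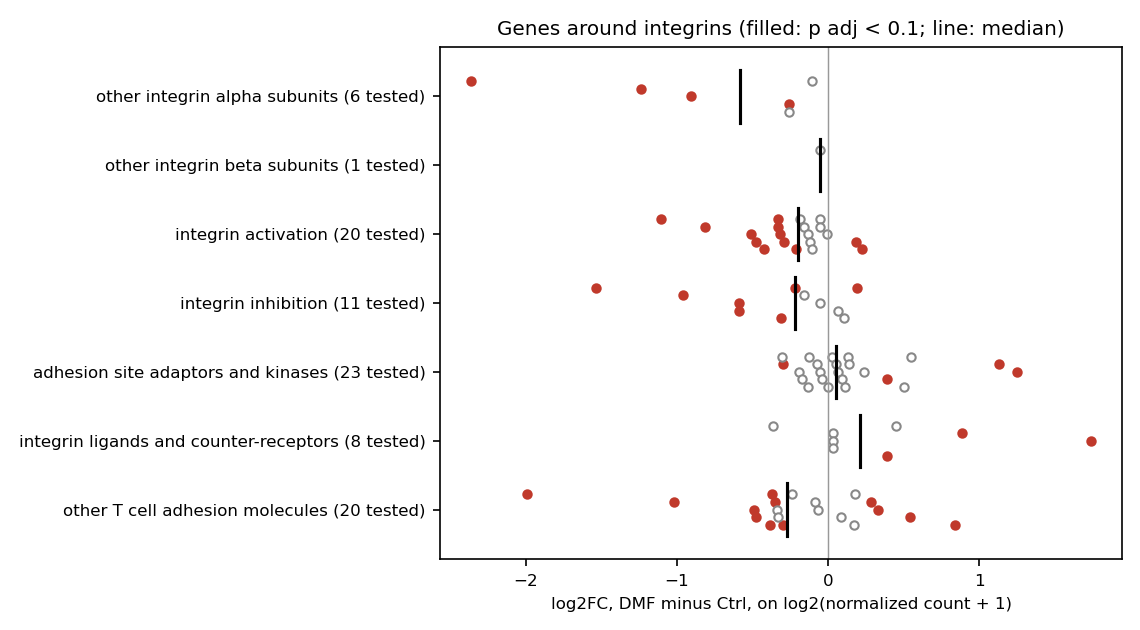
log2FC of DMF minus Ctrl for each tested gene of 7 lists around integrins, where filled points have p adj under 0.1 and vertical lines are list medians. Points of the activation and inhibition lists lie mostly below 0, with medians of −0.20 and −0.22, and the ligand list has a median of 0.21.

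Of 30 adaptors and kinases of adhesion sites, 23 were tested, 3 rose and 1 fell at p adj under 0.1, with a median of 0.05. Over all genes tested, 19.9% rose and 18.3% fell, so these counts are not read as a result about the list. Tns1, which encodes tensin and links β tails to actin, rose past the threshold from 599, 548 and 690 normalized counts in Ctrl to 1550, 1036 and 1489 with DMF (log2FC 1.13, SE 0.145, p adj = 0.00313 in limma). Git1, a scaffold that recycles adhesion sites, rose by 0.39 (p adj = 0.0253, and up to 0.150 without Ctrl replicate 1, Ctrl replicate 2 or DMF replicate 1). Of 16 ligands and counter-receptors, 8 were tested and 3 rose at that threshold (19.9% of all genes), with a median of 0.21. Spp1, which encodes osteopontin, a ligand of αv and α4 integrins, had 136, 138 and 151 normalized counts in Ctrl and 466, 630 and 365 with DMF. It rose past the threshold (log2FC 1.74, SE 0.189, p adj = 0.00202), with 231 ± 40.3 in DMF + GSH (SD, n = 3). Icam1, the LFA-1 ligand, rose by 0.39 (p adj = 0.00711).

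Of 20 other adhesion molecules of T cells, all tested, 8 fell and 4 rose at p adj under 0.1, with a median of −0.27. Over all genes tested, 18.3% fell and 19.9% rose. Alcam, the ligand of CD6, rose from 607 ± 40.4 to 1089 ± 137 normalized counts (SD, n = 3; log2FC 0.84, p adj = 0.00173 in limma). L1cam fell from 133 ± 0.999 to 66.3 ± 14.7 (log2FC −1.02, p adj = 0.00661). Over the 5 lists 6 genes were past the stricter threshold, where limma called 335 of all 11599 genes tested. With the replicate block 10 list genes were past it, where 789 of all 11599 were called. The list count without the block was 0 without Ctrl replicate 1 or DMF replicate 1 and 1 without DMF replicate 3. It was 2 without Ctrl replicate 2 or DMF + GSH replicate 1, where Spp1 and Alcam remained. For DMF + GSH against DMF, which shares the DMF libraries by which these genes were named, the log2FC was 0.94 for Rasgrp2, 0.91 for L1cam and −1.05 for Spp1, given with no test.

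Likeness to Itgam was described by Pearson's r of log2(normalized count + 1) over the 9 libraries after subtraction of the batch means. The 5 genes with the highest values were Ttc33 (0.990), Gm12258 (0.987), Top2a (0.987), Pld2 (0.986) and Gzf1 (0.986). Among the other integrin genes described, r was 0.957 for Itga4, 0.933 for Itgb7, 0.846 for Itgb3, 0.641 for Itgal, 0.501 for Itgae and 0.439 for Itgb2, and −0.712 for Itgb1 and −0.876 for Itgav. The points share the 9 libraries and their 3 groups.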

How the data were processed

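The authors aligned single reads of 50 bases to Ensembl GRCm38 (annotation 76) with STAR 2.4.0b and counted them per gene with featureCounts, after a FastQC check. Strand use and the treatment of reads shared by several genes are not given in the sources used here, so reads from overlapping genes cannot be told apart. The deposited signal is the read count per gene divided by a size factor per library. Values above 0 were whole multiples of the smallest value step of their library in 100% of cases (tolerance 0.01), and the reads so recovered were summed as the depth. The authors also deposited a mean signal, a log2 fold change, a test score, a p-value and an adjusted p-value of their own comparison, which were not used.

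The 9 genes and all lists were chosen with earlier results of these data known. limma-trend (limma 3.58.1, R 4.3.3) was fitted to log2(normalized count + 1) of all 9 libraries with group and batch, over 11599 of 41388 genes with a mean of at least 10, and p adj is Benjamini-Hochberg over them. The design had foreseen edgeR for raw counts. edgeR 4.0.16 and DESeq2 1.42.0 on the recovered reads were alternatives, as were TMM rescaling, a minimum of 50 or none, a pseudocount of 0.5 or 4, no batch term, a replicate block, only the 6 libraries compared and each library left out. The block with each library left out was added after seeing the data. The labels do not say whether replicates came from separate animals, so the p-values measure the spread between these samples, which may be technical.

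The replicate numbers of the labels paired the samples: after subtraction of group means, all 9 pairs of equal number and different group correlated over genes at 0.447 to 0.578, and the 18 pairs of different number at −0.471 to −0.0621. Named were all 9 genes, every other integrin subunit with a mean of at least 10, per list up to 4 genes past the threshold by absolute log2FC (at least 2 genes, filled up by p adj), the 5 genes most like Itgam, and the neighbours of Itgam. Outside that rule, Tln1, Apbb1ip and the marker genes named were chosen after their values were seen. Some genes that the rule would name are not reported here. Positions and exon lengths are from GENCODE vM21, which held 40254 of the gene identifiers. Tables and figures used Matplotlib 3.10.9, NumPy 2.4.6 and pandas 2.3.3 under Python 3.11.15.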

Additional observations from a re-analysis of the deposited data

How the results depend on the processing

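The log2FC of the 9 genes for DMF against Ctrl kept its direction wherever it was past the threshold, and of 251 alternative values 10 moved by more than the spread between replicates; Itgam ranged from −3.26 to −2.42 and could not be tested at a minimum mean of 50. The counts depended on the model of the spread, and the cause was not tested. For DMF against Ctrl, limma called 335 genes, 789 with the replicate block and 43 with only the 6 libraries, DESeq2 called 551 and edgeR 338, and leaving out 1 library gave 2 to 680, or 561 to 865 with the block as well. For DMF + GSH against Ctrl, 0 genes became 1 with the block, stayed at 0 with 1 library left out and were 0 to 5 with both, edgeR and DESeq2 calling 0. For DMF + GSH against DMF, 63 genes became 273 with no minimum, 28 without the batch term, 660 with the block, 5 with only the 6 libraries, 393 with DESeq2, 66 with edgeR, 0 to 480 with 1 library left out and 404 to 728 with the block as well. Of the 9 genes, 3 were past the threshold for DMF against Ctrl, 0 with only the 6 libraries and 0 to 4 with 1 library left out (4 with the block as well); for DMF + GSH against DMF, 0 became 2 with no minimum, 4 with the block, 3 with DESeq2, 0 to 3 with 1 library left out and 3 to 4 with the block as well. The 6 list genes became 10 with the block, 2 with only the 6 libraries, 0 to 10 with 1 library left out and 8 to 10 with the block as well. For DMF + GSH against DMF these counts share the DMF libraries that chose the genes, and nothing is read from them.

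Some log2FC values near 0 changed sign. With 1 library left out, with or without the block, those of DMF + GSH against Ctrl ranged from −0.35 to 0.0064 for Itga4, from −0.046 to 0.043 for Itgal (0.0018 with TMM rescaling), from −0.0051 to 0.24 for Itgav, from −0.16 to 0.13 for Itgb1, from −0.022 to 0.061 for Itgb2, from −0.71 to 0.14 for Itgb3 and from −0.30 to 0.0051 for Itgb7. Those of DMF + GSH against DMF ranged from −0.20 to 0.063 for Itgae and from −0.0014 to 0.081 for Itgb2, and those for DMF against Ctrl from −0.049 to 0.0067 for Itgb2 and from −0.53 to 0.44 for Itgb8. Itgam and Itga7 rest on fewer than 10 reads in each DMF library, which limits the precision of their fold changes.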
